A study of Mus musculus with 48 samples.

Results

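Microglia are the resident macrophages of the brain, and 9 genes that mark them or that make the opening component of the complement cascade are described here across mouse RNA libraries of the visual pathway. The genes are C1qa, C1qb, C1qc, Trem2, Csf1r, Cx3cr1, P2ry12, Tmem119 and Ctss. They were taken by symbol, and all 9 were found among the 54331 genes of the deposited tables. The study asked about RNA in axons of RGC (retinal ganglion cells, the output neurons of the retina). These axons end in SC (superior colliculus) and in LGN (lateral geniculate nucleus). The 48 libraries fall into 15 groups.

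Axon-TRAP libraries hold RNA pulled down with tagged ribosomes, and EU libraries hold RNA pulled down through ethynyl uridine, a nucleoside label injected into the vitreous of the eye. The TRAP groups from SC were fmr1ko at P14 (n = 3), wild type at P14 (n = 5) and wild type at P10 (n = 3), and wild-type LGN at P14 gave 3 TRAP libraries. The EU groups from SC were sarm1ko at P14 with a 7-day chase after axotomy (n = 3), fmr1ko at P14 (n = 3), wild type at P10 with a 4-day chase (n = 3), and wild type at P10 (n = 3), P14 (n = 5) and 8 weeks (n = 3). Wild-type LGN at P14 gave 2 EU libraries. The eye groups, all at P14, were FACS-sorted cells of fmr1ko mice (n = 3), FACS-sorted cells of wild-type mice (n = 3), immunopanned wild-type RGC with EU capture (n = 3) and immunopanned wild-type RGC without it (n = 3). All groups except the sarm1ko one are labelled naïve for axotomy. Genotype, injury, chase and the age added by the chase therefore cannot be told apart in the sarm1ko group. The EU protocol pools tissue of 3 animals, the labels do not name the driver of the ribosome tag, and p-values measure the spread between libraries.

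C1q, the recognition part of the C1 complex, is built from chains encoded by C1qa, C1qb and C1qc. In the brain it is made mainly by microglia, and in the developing visual thalamus of the mouse it has been tied to the removal of synapses by these cells. Csf1r is the receptor whose ligands CSF1 and IL-34 keep microglia alive, Cx3cr1 is the receptor for the neuronal chemokine CX3CL1, and P2ry12 is a nucleotide receptor that guides microglial processes to injury. Trem2 is a lipid-sensing receptor that signals through the adaptor TYROBP, Tmem119 is a transmembrane protein used to mark resident microglia, and Ctss encodes the lysosomal protease cathepsin S.

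The 3 C1q genes lie side by side on the minus strand of mouse chromosome 4, between positions 136880129 and 136898803 of mm10 (C1qb, then C1qc, then C1qa). Cx3cr1 lies on chromosome 9, Tmem119 on 5, P2ry12 and Ctss on 3, and Trem2 on 17. All 9 are annotated as protein-coding. Csf1r shares 15.1% of its exonic bases with Hmgxb3 on the other strand, so reads of this pair cannot be told apart there without strand information. The overlaps of Cx3cr1 (1.73%) and P2ry12 (0.353%) with opposite-strand genes are small.

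Sequences before the transcription start were found in the RefSeq promoter table (GRCm38.p6) for 6 of the 9 genes, not for C1qa, Tmem119 and Csf1r. The 250 bases upstream of C1qb (chr4:136886201-136886450, minus strand) and C1qc (chr4:136892915-136893164, minus strand) are shown because these neighbours moved together within groups, and those of P2ry12 (chr3:59262986-59263235, minus strand) and Ctss (chr3:95526536-95526785, plus strand) for contrast. P2ry12 had a negative r with both C1q genes over all libraries, and Ctss with both when 1 library was left out (over all libraries its r was −0.198 with C1qb and 0.201 with C1qc). Capitals mark matches on either strand to GAGGAA (the core of many sites of the myeloid factor PU.1), GGAAGT (a core of ETS factors) or the core of the interferon-stimulated response element (ISRE), a spaced repeat of GAAA. Each is written 5′ to 3′ on the strand of its gene.
C1qb: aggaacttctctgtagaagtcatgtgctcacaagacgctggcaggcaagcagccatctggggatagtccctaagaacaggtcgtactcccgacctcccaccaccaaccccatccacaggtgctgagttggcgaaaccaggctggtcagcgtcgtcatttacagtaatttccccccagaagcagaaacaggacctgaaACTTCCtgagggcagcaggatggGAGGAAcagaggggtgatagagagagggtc
C1qc: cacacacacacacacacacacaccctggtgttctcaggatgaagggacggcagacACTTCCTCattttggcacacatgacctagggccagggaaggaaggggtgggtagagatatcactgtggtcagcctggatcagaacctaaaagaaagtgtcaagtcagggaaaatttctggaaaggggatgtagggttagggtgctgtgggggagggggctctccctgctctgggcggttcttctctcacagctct
P2ry12: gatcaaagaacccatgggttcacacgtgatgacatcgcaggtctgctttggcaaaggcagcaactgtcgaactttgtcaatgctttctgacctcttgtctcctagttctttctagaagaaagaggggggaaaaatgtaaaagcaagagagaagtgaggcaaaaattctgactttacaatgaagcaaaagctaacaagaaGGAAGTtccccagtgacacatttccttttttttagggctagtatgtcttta
Ctss: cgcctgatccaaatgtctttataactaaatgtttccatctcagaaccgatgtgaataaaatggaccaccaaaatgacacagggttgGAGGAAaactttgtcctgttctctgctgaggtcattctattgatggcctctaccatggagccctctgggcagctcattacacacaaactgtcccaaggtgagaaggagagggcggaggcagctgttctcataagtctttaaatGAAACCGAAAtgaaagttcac
Positions are counted from the RefSeq start, with −1 the base just before it. In the C1qb window GAGGAA begins at −30, and GGAAGT lies on the other strand from −53. In the C1qc window GGAAGT and GAGGAA, both on the other strand, overlap and begin at −195 and −193. P2ry12 holds GGAAGT at −51. Ctss holds GAGGAA at −164 and the ISRE core at −21. Over the 6 windows, GAGGAA was present in 4, GGAAGT in 3 and the ISRE core in 1. Among 32841 windows of the same length, 23.3% held GAGGAA, 19.7% held GGAAGT and 2.98% held the ISRE core, so a match is common for the short motifs and describes the letters only.

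Library totals ran from 2558141 to 48263706 estimated counts. Wild-type P14 SC replicates 1 and 2 carry another series of title codes than replicates 3 to 5, and their EU libraries are shallow (2558141 and 6034159 counts). Replicates 3 to 5 were therefore used in the tests. The library labelled SC TRAP fmr1ko replicate 2 stood apart from its label. Its summed level of 14 rod photoreceptor markers was 88048 TPM, against 419 and 621 TPM in the other fmr1ko TRAP libraries, and FACS-sorted eye cells had 75139 to 127221 TPM. Its 11 oligodendrocyte markers summed to 23.2 TPM, against 5326 and 9900 TPM in the other libraries of that group. Immunopanned EU replicate 1 also had a rod sum of 88234 TPM, against 3894 and 6697 TPM in replicates 2 and 3. The 12 genes listed as RGC markers summed to 31.6 to 99.3 TPM in the immunopanned libraries without EU, against 1513 to 2810 TPM in SC TRAP P14 libraries. These genes did not move as a set. Against wild-type FACS cells, 8 of the 12 were higher in SC TRAP P14, with Thy1 and Tubb3 among them, and 2 were lower, with Isl1 among them (log2 fold change −10.1). The summed level of these genes was 190 to 373 TPM in the immunopanned EU libraries. Whether the sum reflects RGC content was not tested. Sarm1 was lower in the sarm1ko libraries (log2 fold change −3.15 ± 0.48 SE, adjusted p = 0.00229). Fmr1 was not lower in the libraries labelled fmr1ko, with log2 fold changes of 3.07 (adjusted p = 0.0686) in EU and −0.24 (adjusted p = 0.966) in TRAP libraries. The wild-type SC EU P14 libraries of the EU comparison were low in Fmr1 against other groups too. In edgeR, Fmr1 was higher in sarm1ko than in them (4.32, adjusted p = 0.00201). It was lower in them than in immunopanned EU libraries (−5.11, adjusted p = 0.0253).

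The 9 genes were abundant in brain libraries and near 0 in sorted eye cells. Their summed level averaged 1009 ± 261 TPM in SC TRAP P14 (SD, n = 5), 743 ± 179 TPM in LGN TRAP P14 (n = 3) and 601 ± 183 TPM in SC TRAP P10 (n = 3). The EU groups of SC lay lower, at 274 ± 37.3 TPM for P10, 336 ± 95.1 TPM for P14 (n = 5) and 398 ± 284 TPM for 8 weeks, at 252 ± 67.3 TPM for the P10 chase, at 213 ± 105 TPM for fmr1ko and at 147 ± 121 TPM for sarm1ko (n = 3 where not given). LGN EU libraries had 80.8 and 341 TPM. SC TRAP fmr1ko libraries had 250, 9.37 and 334 TPM, the second value being that of the library with rod markers. The immunopanned EU libraries had 18.6, 164 and 419 TPM. FACS-sorted cells averaged 1.22 ± 1.14 TPM in fmr1ko and 6.03 ± 1.39 TPM in wild-type mice, and immunopanned RGC without EU 5.52 ± 5.75 TPM.

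**Figure D1:**
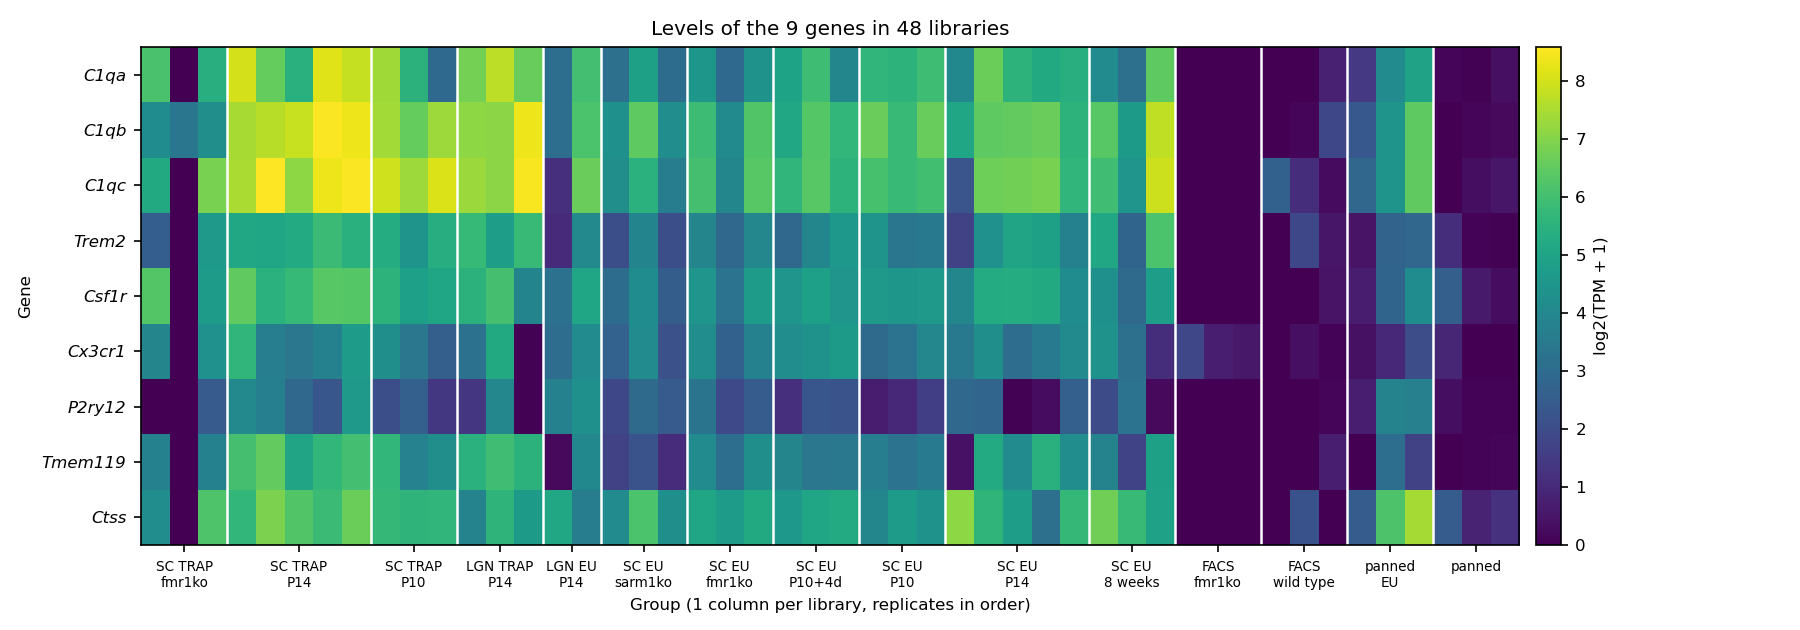
Level of each gene (rows) in each library (columns, grouped, white lines between groups) as log2(TPM + 1). TRAP libraries of SC and LGN are brightest for the C1q genes, the column of SC TRAP fmr1ko replicate 2 is dark for every gene but C1qb, and the FACS and immunopanned libraries without EU are dark throughout.

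Within the brain the C1q genes had the highest medians over libraries, though not in every group. Over the 36 SC and LGN libraries the median level was 83.7 TPM for C1qb, 80.3 TPM for C1qc and 43.8 TPM for C1qa. Ctss followed with 35.4 TPM, Csf1r with 25.2, Trem2 with 20.1, Tmem119 with 14.5, Cx3cr1 with 12.2 and P2ry12 with 3.88 TPM. C1qb and Csf1r had a count in every brain library, and the lowest level of C1qb was 7.58 TPM, in LGN EU replicate 1. By group mean, Ctss lay above C1qa in SC EU P14 (54.6 TPM of Ctss and 47.9 TPM of C1qa), in the 8-week libraries (62.8 and 37.0 TPM), in EU fmr1ko (31.6 and 16.4 TPM) and in sarm1ko (35.2 and 14.5 TPM). P2ry12 was under 1 TPM in 8 of the 36 libraries and Tmem119 in 3. The mean over libraries was highest in SC TRAP P14 among the SC and LGN groups for 7 of the 9 genes in TPM, but for 3 of the 9 in CPM, read counts scaled to a common library size. When groups were ordered by mean TPM, neighbouring groups overlapped in range for 117 of 126 neighbour pairs over the 9 genes. Of the 9 pairs that were apart, 0 lay between groups of brain libraries, so neighbours in the order of SC and LGN groups were not resolved beyond the spread between libraries. Groups farther apart in the order could be separate. C1qb lay between 174 and 366 TPM in SC TRAP P14, against 32.7 to 98.9 TPM in SC EU P14.

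C1qb averaged 262 ± 83.9 TPM in SC TRAP P14 (SD, n = 5), 202 ± 113 TPM in LGN TRAP and 140 ± 40.1 TPM in SC TRAP P10, against 71.3 ± 29.8 TPM in SC EU P14 (n = 5) and 82.1 ± 24.3 TPM in SC EU P10. C1qc had 282 ± 113 TPM in SC TRAP P14 and 75.4 ± 47.6 TPM in SC EU P14, and C1qa had 181 ± 107 TPM in SC TRAP P14 and 47.9 ± 32 TPM in SC EU P14. Csf1r averaged 68.8 ± 19.4 TPM in SC TRAP P14 and 28.8 ± 12 TPM in SC EU P14. Ctss did not share this pattern as clearly. It had 80.3 ± 28.7 TPM in SC TRAP P14 and 54.6 ± 49.9 TPM in SC EU P14, with its highest brain value, 138 TPM, in the shallow SC EU P14 replicate 1. P2ry12 was the least abundant, with 12.3 ± 7.98 TPM in SC TRAP P14 and 3.53 ± 3.14 TPM in SC EU P14.

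The first question is whether ribosome-bound and EU-captured RNA from the same tissue differ in these genes. At P14 in SC, CPM of C1qb was 144, 237 and 158 in TRAP libraries, against 58.1, 72.0 and 32.0 in EU libraries (CPM is scaled within each comparison and differs slightly between them). Every TRAP library lay above every EU library, and the log2 fold change was 1.73 ± 0.40 (SE, adjusted p = 0.0188). C1qa had 24.8, 171 and 99.9 CPM in TRAP libraries, against 27.4, 24.4 and 27.0 CPM in EU libraries, a log2 fold change of 1.90 ± 0.58 (adjusted p = 0.0492). Its lowest TRAP library was inside the EU range. C1qc had 99.4, 251 and 206 CPM in TRAP libraries, against 78.9, 95.6 and 39.5 CPM in EU libraries. The groups did not overlap, but the test missed the threshold (1.38 ± 0.45, adjusted p = 0.0631).

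In all, 2 of the 9 genes were higher and 0 lower in SC TRAP P14, against 5.73% of all 16277 tested genes higher and 8.64% lower. All 9 fold changes were positive, with a median of 1.18 against −0.01 for all tested genes. Csf1r (adjusted p = 0.152) and Ctss (adjusted p = 0.188) also did not overlap between the groups, but neither passed. How many of all genes did not overlap was not counted, so this describes the members only. P2ry12 rested on few reads in EU libraries, with 1, 8 and 135 counts in replicates 3 to 5, and these libraries are also the wild-type side of the sarm1ko, fmr1ko and 8-week EU comparisons. Calls depended on single libraries: 0 genes were called without TRAP replicate 4 or without EU replicate 3, and 1 without TRAP replicate 5 or EU replicate 4. Scaling with RLE size factors left 1 call, and all genes without a filter gave 4.

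Of 24 other microglial genes tested at P14, 3 were higher and 0 lower, with a median log2 fold change of 0.97. In brackets after a gene of these lists stands its log2 fold change. Among those called were Cd53 (6.05), a membrane protein of leukocytes, and Itgb5 (1.27), an integrin subunit. Of 15 tested genes of reactive microglia, 4 were higher, among them the tetraspanin Cd63 (2.18) and the cathepsins Ctsl (2.12) and Ctsz (1.56), with a median of 1.26. Of 25 tested genes of the complement system and its synaptic regulators, 2 were higher and 2 lower. Cd55, a regulator that speeds the decay of complement convertases, was higher (8.65), while Csmd2 (−3.08), a neuronal protein with complement-control domains, and Nptxr (−1.25), a neuronal pentraxin receptor, were lower. Of 12 tested ligands and signalling partners, 1 was higher, the TGF-beta receptor gene Tgfbr2 (2.79), and of 7 tested markers of border macrophages 1, the mannose receptor gene Mrc1 (3.89). Markers of other glia and vessels leaned the same way without a call: oligodendrocyte markers had a median of 0.81 (0 of 11 called), astrocyte markers 0.72 (0 of 10) and endothelial markers 0.69 (0 of 10), while RGC markers had 0.21 (0 of 11). Of 8 Müller glia markers 2 were higher, Vim (1.32) and Dkk3 (1.47), of 4 rod markers and 5 blood markers 0 were called. The part of these cell types in the result was not tested.

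At P10 in SC, C1qc, Tmem119 and Ctss passed. C1qc had 185, 165 and 381 CPM in TRAP libraries, against 62.0, 52.4 and 46.8 CPM in EU libraries (log2 fold change 2.18 ± 0.41, adjusted p = 0.00759). Tmem119 had 85.7, 27.4 and 53.4 CPM in TRAP libraries, against 22.5, 16.9 and 16.6 CPM in EU libraries (1.57 ± 0.46, adjusted p = 0.04). Ctss had 45.5, 55.8 and 78.1 CPM in TRAP libraries, against 15.1, 27.2 and 17.2 CPM in EU libraries (1.59 ± 0.40, adjusted p = 0.0228). For each of these genes the groups did not overlap. C1qb did not pass (1.02 ± 0.40, adjusted p = 0.108). C1qa did not pass either, with 95.8, 38.7 and 7.20 CPM in TRAP libraries, against 38.1, 35.9 and 37.4 CPM in EU libraries (0.35 ± 0.69, adjusted p = 0.772). Differences between the C1q genes were not tested. The EU libraries were nearly equal in C1qa, and the TRAP libraries lay on both sides of them.

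The count at P10 was 3 higher and 0 lower of 9, against 6.38% of tested genes higher and 11.1% lower. All 9 fold changes were again positive (median 1.56, against −0.08 for all tested genes). The groups overlapped for C1qa and Cx3cr1 and not for the other members. The share of all genes without overlap was not counted, so this describes the members only. Without EU replicate 1 or EU replicate 3, only C1qc was called. Other microglial genes gave 3 higher and 0 lower of 22, namely Tyrobp (1.36), the signalling adaptor of Trem2, Olfml3 (1.71), a secreted protein, and Siglech (2.17), a sialic acid lectin. Ctsz (1.94) and Ctsl (1.92) were higher again and were the 2 called of 14 reactive genes. Of 22 complement genes 1 was higher and 3 were lower, with Csmd2 (−2.82) and Csmd1 (−2.10) among the lower ones. Among other cell types the endothelial markers Itm2a (3.29) and Cldn5 (1.96) were higher and Flt1 (−1.39) lower, and the astrocyte marker Gja1 (6.45) was higher, 1 of 10. The difference between the TRAP to EU ratio at P14 and that at P10 was tested as an interaction in edgeR. It called 0 of the 9 genes (0% of all genes higher and 0% lower, 0 members at an unadjusted p under 0.05, and 0 members by DESeq2 and by limma). The smallest p belonged to C1qa (1.48 ± 0.97, adjusted p = 0.575) and C1qc (−0.86 ± 0.61, adjusted p = 0.605).

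In LGN, TRAP and EU libraries were also compared, and the libraries of each group were far apart for several genes. C1qb had 122, 73.7 and 361 CPM in TRAP libraries, against 3.60 and 26.9 CPM in EU libraries (log2 fold change 3.60 ± 1.08, adjusted p = 0.0617). C1qa had 90.7, 108 and 98.4 CPM in TRAP libraries, against 3.43 and 23.4 CPM in EU libraries (2.88 ± 0.93, adjusted p = 0.0778). Ctss had 1.02 ± 1.09 (adjusted p = 0.585) and P2ry12 −1.08 ± 1.70 (adjusted p = 0.724), and LGN was not tested against SC. The groups did not overlap for the C1q genes, Csf1r, Tmem119 and Trem2, and overlapped for Cx3cr1, P2ry12 and Ctss. The share of all genes without overlap was not counted, and with so few libraries a lack of overlap says little. Cx3cr1 and P2ry12 went to 1 count each in LGN TRAP replicate 3, which had 0.103 CPM of both, against 25.2 and 69.7 CPM of Cx3cr1 in the other TRAP libraries. The same library held the most C1qb and C1qc of the group. LGN EU replicate 1, with 5908398 counts, held 1 count of Tmem119, 3 of Trem2 and 4 of C1qc. edgeR called 0 of the 9 genes (0.235% of all genes higher and 1.17% lower), with 6 members at an unadjusted p under 0.05, while DESeq2 called 5 and limma 0. The shares of all genes behind the unadjusted and DESeq2 counts are not given here, so these counts describe the members only. The median of all tested genes was −0.24 here and moved by a further −0.23 with RLE size factors, and the members' median was 2.88 with TMM. Laptm5 (4.02), a lysosomal membrane protein of leukocytes, was higher and was the 1 called of 23 other microglial genes.

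**Figure D2:**
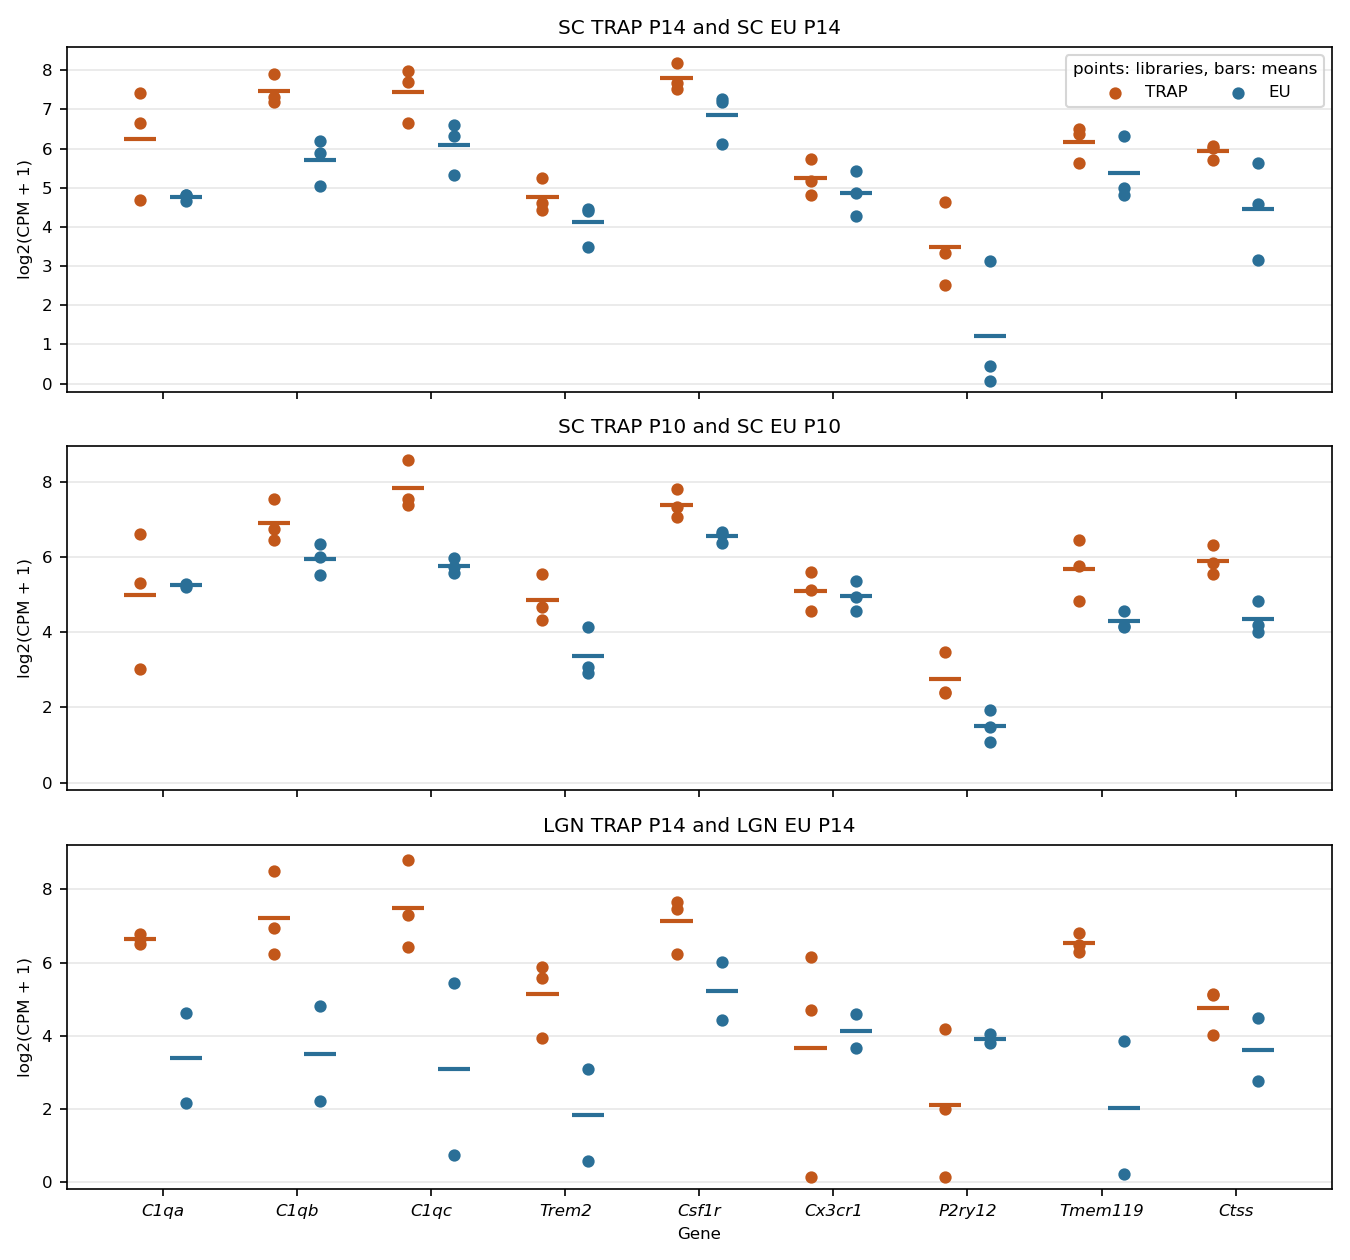
CPM of each gene on a log2(CPM + 1) axis in TRAP (orange, left) and EU libraries (blue, right), 1 point per library and a bar at the mean of the log values. In SC at P14 and P10 the C1qb, C1qc, Csf1r and Ctss points of TRAP libraries lie above all EU points, and in LGN the 2 EU libraries are far apart for Tmem119 and C1qc.

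SC TRAP P14 libraries were also set against FACS-sorted cells of the eye. SC TRAP P14 libraries had 28.3, 37.0 and 53.6 CPM of Cx3cr1, against 0.0421, 0.573 and 0.249 CPM in wild-type FACS libraries. All 9 genes were higher in SC TRAP P14, with fitted log2 fold changes of 5.62 (Trem2) to 9.42 (C1qa) whose size depends on how counts of 0 are handled, against 22.2% of all genes higher and 22.4% lower. C1qa had 25.9, 180 and 102 CPM in SC TRAP P14 and 0, 0 and 0.499 CPM in FACS libraries. Lists of other cell types differed as well. Oligodendrocyte markers were higher in 11 of 11, astrocyte markers in 8 of 10, other microglial genes in 20 of 23 and border macrophage markers in 5 of 7, while rod markers were lower in 14 of 14 and Müller glia markers were higher in 2 and lower in 3 of 8. In bulk samples fewer cells of a type and less RNA per cell cannot be told apart.

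The FACS libraries held few reads of the 9 genes, and these were scattered. Wild-type FACS replicate 1 had 170 counts of C1qc with 0 of C1qa and C1qb, and replicate 2 had 118 counts of Ctss while replicates 1 and 3 had 0. The fmr1ko FACS libraries had 191, 52 and 36 counts of Cx3cr1 and 0 counts of the other 8 genes in all 3 libraries, where 3 counts correspond to 0.102 to 0.107 CPM. Wild-type FACS libraries had 2, 28 and 8 counts of Cx3cr1. The immunopanned EU libraries differed among themselves. Ctss had 3.90, 160 and 331 CPM in them, and the library with the lowest value is the one with the high rod sum. SC EU P14 libraries had 15.9, 5.36 and 35.2 CPM of Ctss, a log2 fold change of −3.13 ± 1.26 (adjusted p = 0.105). P2ry12 had 0.0306, 0.255 and 5.53 CPM in SC EU P14, against 1.002, 41.1 and 37.6 CPM in immunopanned EU libraries (−3.78 ± 1.85, adjusted p = 0.176). edgeR called 0 of the 9 genes (11% of all genes higher in SC EU P14 and 11.4% lower), with 1 member at an unadjusted p under 0.05. DESeq2 called 2 lower and limma on TPM 3 higher, and these were different genes. The DESeq2 calls were Ctss (−3.18, adjusted p = 0.0298) and P2ry12 (−3.84, adjusted p = 0.0437), which in limma had −0.82 (adjusted p = 0.596) and −1.78 (adjusted p = 0.167). Without immunopanned EU replicate 1, Ctss was lower in SC EU P14 (−3.70, adjusted p = 0.0191). Of 23 other microglial genes 3 were lower in SC EU P14, among them Cd53 (−6.25) and P2ry13 (−6.93). Cx3cl1 (4.85), the neuronal ligand of Cx3cr1, was higher there, among 4 higher and 1 lower of 12 partners. Oligodendrocyte markers were higher in SC EU P14 in 10 of 10.

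Between ages 0 of the 9 genes were called. The TRAP and 8-week tests called 0% of all genes, so their lack of calls is not particular to the members. In EU libraries of SC, Tmem119 had 25.9, 77.0 and 30.5 CPM at P14, against 21.02, 16.4 and 16.4 CPM at P10 (1.31 ± 0.47, adjusted p = 0.166). C1qa had 26.2, 23.8 and 26.8 CPM at P14, against 35.6, 34.9 and 36.9 CPM at P10 (−0.48 ± 0.35, adjusted p = 0.507). In both genes the groups did not overlap, and C1qa differed little among replicates. edgeR called 0 of 9 (0.91% of all genes higher and 1.12% lower), with 1 member at an unadjusted p under 0.05 and 0 by DESeq2 and limma. In the same comparison 6 of 11 oligodendrocyte markers and 3 of 10 astrocyte markers were higher at P14.

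In TRAP libraries, P2ry12 had 8.84, 4.72 and 23.7 CPM at P14, against 4.70, 10.9 and 4.48 CPM at P10 (0.89 ± 0.67, adjusted p = 0.574). C1qa had 24.1, 169 and 99.0 CPM at P14, against 103.2, 42.0 and 7.72 CPM at P10 (0.93 ± 0.85, adjusted p = 0.642). Both genes overlapped between ages, and edgeR called 0 of 9 (0% of all genes higher and 0% lower), with 0 members at an unadjusted p under 0.05 and 0 by DESeq2 and limma. At 8 weeks, EU libraries had 80.3, 67.4 and 25.9 CPM of Ctss, against 19.99, 6.996 and 44.6 CPM at P14 (1.28 ± 0.78, adjusted p = 0.636). Tmem119, Csf1r and C1qa had negative fold changes at 8 weeks and the other 6 genes positive ones, with P2ry12 at 1.65 ± 1.71 (adjusted p = 0.773). The 8-week libraries were unlike each other: replicate 3 had the most C1qa, C1qb, C1qc and Trem2 and the least Cx3cr1, P2ry12 and Ctss. edgeR called 0 of 9 (0% of all genes higher and 0% lower), with 0 members at an unadjusted p under 0.05 and 0 by DESeq2 and limma.

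After the 4-day chase from P10, Cx3cr1 had 49.8, 56.3 and 66.2 CPM, against 25.2, 33.8 and 44.6 CPM at P10 without chase (0.73 ± 0.31, adjusted p = 0.252). C1qb had 23.1, 52.6 and 30.5 CPM after the chase, against 88.6, 51.1 and 69.7 CPM at P10 (−0.98 ± 0.37, adjusted p = 0.214). The Cx3cr1 groups did not overlap. edgeR called 0 of 9 (0.00597% of all genes higher and 0% lower), with 2 members at an unadjusted p under 0.05 and 0 by DESeq2 and limma. The 3 C1q genes all had negative fold changes, and Cx3cr1, P2ry12 and Ctss positive ones. The 4-day chase also adds age, so chase and age cannot be told apart in this comparison.

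The sarm1ko EU libraries, from axotomized mice after a 7-day chase, were compared with naïve wild-type EU libraries at P14. Tmem119 had 4.67, 4.19 and 3.94 CPM in sarm1ko, against 19.1, 56.0 and 21.2 CPM in wild type, and fell by 2.91 ± 0.51 on the log2 scale (adjusted p = 0.0034). C1qc had 15.8, 21.6 and 16.1 CPM in sarm1ko, against 55.6, 67.8 and 27.2 CPM in wild type (−1.49 ± 0.40, adjusted p = 0.0161). C1qa had 5.54, 10.8 and 8.20 CPM in sarm1ko, against 19.3, 17.3 and 18.6 CPM in wild type (−1.17 ± 0.42, adjusted p = 0.0494). For these genes all sarm1ko libraries lay below all wild-type libraries. Csf1r had 29.7, 47.7 and 40.3 CPM in sarm1ko, against 102, 108 and 47.5 CPM in wild type (−1.13 ± 0.37, adjusted p = 0.0374), with a slight overlap. Not all members moved together, since P2ry12 (2.03 ± 1.25, adjusted p = 0.215) and Ctss (0.72 ± 0.59, adjusted p = 0.345) had positive fold changes that did not pass.

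The count was 4 lower and 0 higher of 9, in a comparison with 20.8% of all genes lower and 16.8% higher, and the members' median was −1.13 against 0.15 for all tested genes. With all 5 wild-type libraries as controls 0 of the 9 were called. Leaving out 1 library left 1 to 8 calls: 1 without sarm1ko replicate 1 or 3 or wild-type replicate 3, 2 without sarm1ko replicate 2 or wild-type replicate 4, and 8 without wild-type replicate 5. Tmem119 passed in each of these 6 fits. The share of all genes called in each refit is not given here, so these counts describe the members only. The sarm1ko libraries held 27.4% to 48.5% of their counts in CT010467.1, which encodes an rRNA, and 13.1% to 31.4% in mitochondrially encoded genes, against 4.54% to 33.7% and 0.407% to 1.76% in wild type. Without these genes 3 of the 9 were lower, Tmem119 (−2.92), C1qc (−1.50) and Csf1r (−1.14), and C1qa had an adjusted p of 0.0508.

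Other microglial genes were lower in 8 of 22 and higher in 2 in the sarm1ko libraries, among them Sparc (−2.18), a matricellular protein that other brain cells also make, Laptm5 (−1.71) and Selplg (−2.23), a selectin ligand. Of 16 reactive genes 3 were lower, with Ctsd (−1.51) and Apoe (−1.65), and 1 was higher, the lipase gene Lpl (2.70). Complement and synaptic regulator genes went both ways, 7 higher and 6 lower of 25, with Nptxr (−2.998), Sez6l (−2.74) and Sez6 (−2.09), all neuronal, among the lower ones. Of 12 partners 2 were higher and 3 lower, namely Cx3cl1 (−2.67), Cst3 (−1.82), a cysteine protease inhibitor that binds cathepsins, and Il34 (−1.79), a ligand of Csf1r. RGC markers were lower in 3 of 10, endothelial markers lower in 4 and higher in 1 of 10, astrocyte markers lower in 2 of 10, and oligodendrocyte markers lower in 3 and higher in 3 of 11. The part of RNA quality and of other cell types in the result was not tested.

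In EU libraries labelled fmr1ko, C1qa had 12.7, 9.52 and 12.6 CPM, against 23.4, 21.3 and 23.8 CPM in wild type (−0.98 ± 0.38, adjusted p = 0.161). All fmr1ko values lay below all wild-type values. P2ry12 had 11.9, 9.42 and 6.68 CPM in fmr1ko, against 0.0380, 0.328 and 6.78 CPM in wild type (1.98 ± 1.30, adjusted p = 0.385). edgeR called 0 of 9 (0.816% of all genes higher and 0.29% lower), with 1 member at an unadjusted p under 0.05 and 0 by DESeq2 and limma. Without wild-type replicate 5, 1 was called. Of the other lists, 1 of 14 reactive genes was higher, Cd63 (1.58), and 1 of 11 oligodendrocyte markers lower, Mag (−1.44), with 0 of 24 other microglial genes called. Mitochondrially encoded genes took 9.58% to 40.0% of counts in the fmr1ko libraries, against 0.407% to 1.76% in wild type, and their part in the result was not tested.

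In TRAP libraries labelled fmr1ko, the values turn on C1qb. It had 7.60, 6.82 and 8.15 CPM in fmr1ko, against 161, 267 and 175 CPM in wild type, a log2 fold change of −4.74 ± 0.49 (adjusted p = 0.0644). The middle value is that of the library with rod markers, which held 222 counts of C1qb, 1.31 of Csf1r and 0 of the other 7 genes. edgeR called 0 of 9 with all libraries (0% of all genes higher and 0% lower), with 1 member at an unadjusted p under 0.05 and 1 each by DESeq2 and limma. Tmem119 had 15.3, 0 and 14.6 CPM in fmr1ko, against 54.5, 100 and 90.2 CPM in wild type (−3.04 ± 1.67, adjusted p = 0.427).

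Without that library, an alternative chosen after its markers were seen, 2 of 9 were lower and 0 higher, against 6.8% of all genes lower and 6.1% higher. C1qb had a log2 fold change of −4.70 ± 0.46 (adjusted p = 0.0156) and Tmem119 one of −2.48 ± 0.47 (adjusted p = 0.0449). C1qc (−2.41 ± 0.65, adjusted p = 0.0515), C1qa (−2.29 ± 0.80, adjusted p = 0.1) and Trem2 (−2.28 ± 0.85, adjusted p = 0.121) missed the threshold, and Cx3cr1 had −0.40 ± 0.50 (adjusted p = 0.647). All 9 fold changes were negative, with a median of −2.29 against −0.07 for all tested genes. Other microglial genes were lower in 4 of 24 (median −1.10) and reactive genes in 7 of 15 (median −2.64), with 0 higher in both. Medians were also negative for astrocyte (−1.04, 2 of 10 lower), endothelial (−1.49, 1 of 10 lower) and oligodendrocyte markers (−1.04, 0 of 11 called). They were negative too for Müller glia (−1.17, 3 of 8 lower) and blood markers (−2.45, 0 of 7 called), while rod markers had a median of 2.84 (2 of 11 higher). Mitochondrially encoded genes took 0.620% and 2.68% of counts in these fmr1ko libraries, against 0.00276% to 0.233% in wild-type replicates 3 to 5. The part of these cell types and of mitochondrial RNA was not tested. In the EU comparison of fmr1ko with wild type, C1qb had −0.36 ± 0.40 (adjusted p = 0.623) and Tmem119 −0.55 ± 0.45 (adjusted p = 0.484). The groups in the EU and TRAP comparisons share no library, and the difference between the EU and TRAP effects was not tested.

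**Figure D3:**
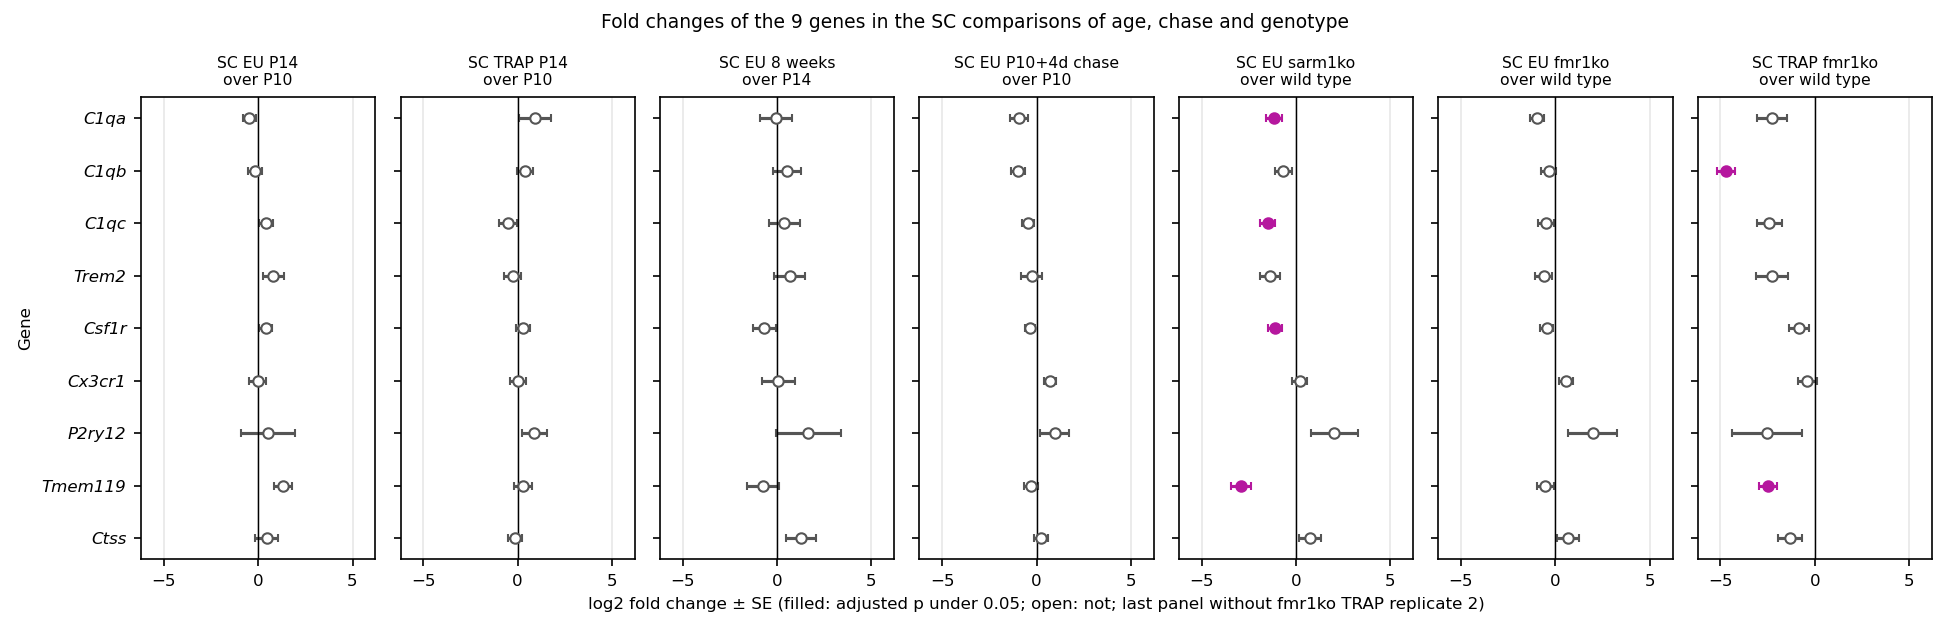
Log2 fold changes with ± SE of the 9 genes in 7 SC comparisons, with filled points for adjusted p under 0.05 in edgeR. In the sarm1ko panel Tmem119, C1qc, Csf1r and C1qa are filled and below 0, and in the TRAP fmr1ko panel, drawn without replicate 2, C1qb and Tmem119 are filled.

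The C1q chains are needed in equal numbers in the protein, and their transcripts kept a loose ratio. Over the 36 brain libraries the ratio of C1qc to C1qb in TPM had a median of 1.05, with quartiles of 0.841 and 1.17, and that of C1qa to C1qb a median of 0.491, with quartiles of 0.353 and 0.891. C1qa took a median of 21.6% of the summed C1q level, C1qb 38.3% and C1qc 38.7%. SC TRAP fmr1ko replicates 1 and 3 were far from this. C1qb took 13.9% and 10.3% of the C1q level in them, against 28.2% to 56.1% in the 5 wild-type P14 TRAP libraries. Their ratios of C1qc to C1qb were 2.13 and 6.43, against 0.599 to 1.90 in the wild-type libraries, and the EU fmr1ko libraries had 1.12, 0.882 and 1.06. SC TRAP P10 replicate 3 was low in C1qa, which took 1.47% of its C1q level. LGN EU replicate 1 and SC EU P14 replicate 1, both shallow, had 7.42% and 7.31% of C1qc, from 4 and 5 counts.

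**Figure D4:**
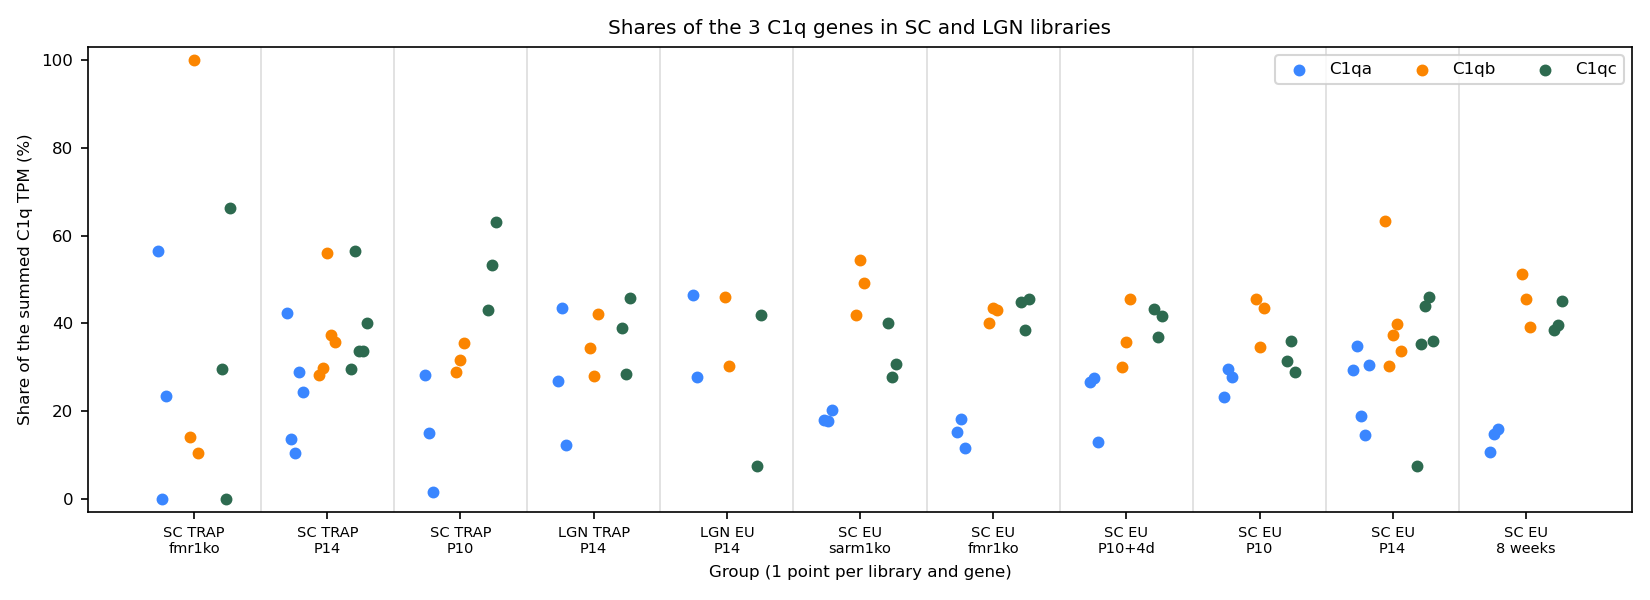
Share of the summed TPM of C1qa, C1qb and C1qc that each gene takes in each SC and LGN library (percent, 1 point per library). C1qb lies at 13.9% and 10.3% in 2 SC TRAP fmr1ko libraries and at 100% in the library with rod markers, and between 28.0% and 63.3% in all other groups.

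Finally, the members were compared in how they vary among libraries of 1 group. After the mean of each group and code series was subtracted from log2(CPM + 1), the 36 pairs of genes had a median Pearson r of 0.396 over the 36 SC and LGN libraries, 27 of them positive. This rested on the library with rod markers: without it the median was 0.0595 over 35 libraries, with 18 pairs positive. C1qb and C1qc had r = 0.893, Trem2 and C1qc 0.866, and Tmem119 and C1qc 0.860. Cx3cr1 and P2ry12, both surface receptors of resting microglia, had r = 0.712. C1qb against P2ry12 gave −0.559 (−0.543 over all 36 libraries) and C1qb against Cx3cr1 −0.504 (−0.388 over all 36). Csf1r against Ctss gave −0.654, but 0.392 over all 36 libraries, so 1 library turned its sign. When the genes were divided, after these values were seen, into the C1q genes with Trem2, Tmem119 and Csf1r on 1 side and Cx3cr1, P2ry12 and Ctss on the other, all 15 pairs within the 6 were positive (0.391 to 0.893) and 2 of the 3 pairs within the other side (−0.0106 to 0.712). Of the 18 pairs between the sides, 1 was positive (median −0.335). The opposition of the sides rested on leaving out that library, since over all 36 libraries 9 of the 18 pairs were positive (median 0.0232), with all 15 pairs (0.295 to 0.899) and all 3 pairs (0.401 to 0.673) within the sides positive.

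The sides also differed in base composition. The longest transcripts of the 6 genes had a GC content of 51.0% (Trem2) to 59.5% (C1qa), those of the 3 others 50.3% (Cx3cr1), 46.0% (Ctss) and 38.6% (P2ry12), and the median of the 9271 ranked genes was 50.6%. The genes most like the mean of the 9 members over all 36 libraries were Kcnip3 (r = 0.943), Hpca, Grm4, Dok5, Asic1, Fibcd1, Ankrd13d and Tmem132e (r = 0.918), of which Hpca encodes a neuronal calcium sensor. Without the library with rod markers, 0 of these 8 remained among the 8 most alike, which were then Mfsd3 (r = 0.914), Crtc1, Mrpl4, Ddx28, Ncln, Gys1, Slc46a1 and Cnpy3 (r = 0.870). All of these had a GC content of 55.4% to 60.9%, and across the 9271 genes the likeness to the members, without that library, was itself correlated with GC content (r = 0.614, genes not being independent, and 0.472 over all 36 libraries). Also without it, the 14 other microglial genes that were abundant enough to be ranked had a median r of 0.358 and the 11 reactive genes 0.356, against 0.162 for all ranked genes. The 5 blood and neutrophil markers lay higher, at 0.447, and 13 complement genes had 0.302. Astrocyte markers had 0.168, partners of the members 0.177, oligodendrocyte markers 0.0165, endothelial markers −0.0373, RGC markers −0.0785, Müller glia markers −0.103 and 2 rod markers −0.0152. Over all 36 libraries astrocyte (0.605), RGC (0.6003) and oligodendrocyte markers (0.564) lay above the other microglial genes (0.493). All these points share libraries of unequal depth and composition, and the part of base composition in them was not tested.

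**Figure D5:**
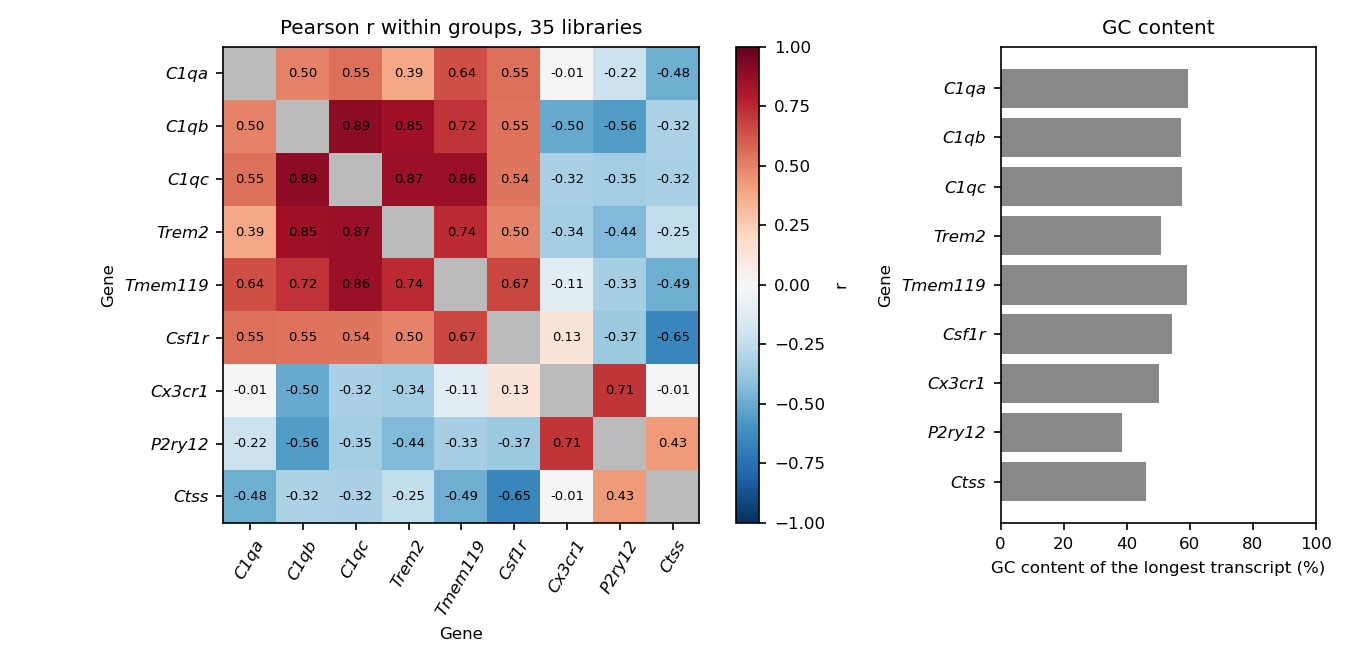
Left, Pearson r between pairs of the 9 genes after group means were subtracted, over 35 SC and LGN libraries (without SC TRAP fmr1ko replicate 2). Right, GC content in percent of the longest annotated transcript. The C1q genes, Trem2, Tmem119 and Csf1r form a block of positive r (0.391 to 0.893), and Cx3cr1, P2ry12 and Ctss, whose GC content is 38.6% to 50.3%, are mostly negative against it, while over all 36 libraries 9 of these 18 pairs are positive.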

How the data were processed

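RNA of 48 mouse libraries was read from tables that the authors deposited with estimated counts and TPM per gene for each library. The submitters' processing notes name Salmon and mm10, and the Salmon version was not given in the sources used here. Of the 54331 genes in the tables, 54097 were matched to symbols by identifier. Estimated counts were rounded to whole numbers. For each comparison, all genes passing filterByExpr were scaled by TMM and tested with edgeR's quasi-likelihood test (edgeR 4.0.16, R 4.3.3), two-sided, with Benjamini-Hochberg adjustment over all tested genes and a threshold of 0.05. Errors of fold changes are standard errors. Shares of all genes in brackets belong to edgeR at the adjusted threshold. Member counts at an unadjusted p, by DESeq2 or by limma stand without such a share and describe the members only. The share of all genes without overlap between groups was not counted in any comparison. CPM uses the TMM library sizes of its comparison. Alternatives were RLE size factors, no filter, DESeq2 1.42.0, limma 3.58.1 with a trend on log2(TPM + 1) for genes with a TPM of at least 1, all 5 wild-type P14 libraries, a replicate block and leaving out each library. Figures and tables used Python 3.11.15, pandas 2.3.3, numpy 2.4.6 and matplotlib 3.10.9. The edgeR fit of a tested against a reference group was run on simulated data. The interaction, the alternatives and the correlations were not.

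Named were all 9 genes in every group, the called ones or those with the 2 smallest p-values in each comparison, and up to 3 called genes of each other list, with further members of the 9 named where their values bear on the description. Likeness to the 9 genes was ranked among genes with a mean log2(CPM + 1) of at least 3, and the 8 most alike were named. The 9 genes and all lists were chosen with earlier results of these data known. Library totals ran from 2558141 to 48263706 counts. A count of 0 allows up to 3 counts, and this covers counting error only. The labels do not say that libraries come from separate animals. Some genes of the lists are counted but not reported here by name.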

Additional observations from a re-analysis of the deposited data

Results flagged for a closer look

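Cx3cr1, the receptor for the chemokine CX3CL1, was present in all FACS-sorted eye libraries labelled fmr1ko and was the only one of the 9 genes with counts there. Its level was 2.53, 0.652 and 0.465 TPM in fmr1ko libraries, against 0.0145, 0.272 and 0.0694 TPM in wild-type libraries, so the lowest fmr1ko value lay above every wild-type value. It stood out because fmr1ko eye cells enter no comparison of the report. The difference was not tested, and the levels rest on 191, 52 and 36 counts in fmr1ko and on 2, 28 and 8 counts in wild type.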

How the results depend on the processing

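Of 157 recomputed counts of called genes, 128 kept within 1.5 times their first value and 29 did not. The 128 include counts that were 0 in both fits, and most comparisons began at 0. Of 431 recomputed fold changes of named genes, 372 kept their direction and side of the threshold, 44 lost the threshold, 15 gained it and 0 reversed. The causes were not tested, and the share of all genes called in each refit is not given beside these counts. Between SC EU P14 and immunopanned EU libraries, 2 genes were called with no filter, 2 by DESeq2 and 3 by limma. In SC TRAP against SC EU at P14, RLE gave 1 and no filter 4. In LGN, no filter gave 4 and DESeq2 5. In sarm1ko, all 5 wild-type libraries gave 0. In TRAP fmr1ko, DESeq2, limma and all 5 wild-type libraries gave 1 each. Leaving out 1 library gave 0 to 1 for the immunopanned comparison, 0 to 3 for TRAP against EU at P14, 1 to 3 at P10, 0 to 1 in LGN, 1 to 8 in sarm1ko, 0 to 1 in EU fmr1ko, 0 to 2 in TRAP fmr1ko and 7 to 9 against FACS cells, and 0 in the others.

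With the replicate number as a block, 1 gene was called in TRAP against EU at P10 and 1 in LGN. In 0 of the 11 comparisons checked did every same-numbered pair have an r over 0.1, so the numbers were not taken to pair libraries. In TRAP against EU at P14 (0.272 and 0.235) and in sarm1ko (0.202 and 0.142) 2 of 3 pairs did, and the immunopanned EU comparison was not checked. Low counts limit single values, as with 5 and 4 counts of C1qc in the shallow SC EU P14 and LGN EU replicates 1, and with 1 and 8 counts of P2ry12 in the deeper SC EU P14 replicates 3 and 4.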
